A study of Mus musculus with 8 samples.

Results

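The purinergic and adenosine pathway was examined through 10 genes, Nt5e, Entpd1, Adora2a, Adora2b, Ada, Adk, Slc29a1, P2rx7, P2rx4 and Art2b. These were chosen by name for their roles, with earlier results of these data known, and found as 10 of the 38215 genes listed. RNAseq measured them in FoxP3+ Treg of the bone marrow (BM-Treg, 4 libraries) and of the spleen (SP-Treg, 4 libraries), sorted from tissues of naive, untreated B6.FoxP3-GFP mice aged 12 weeks, a strain in which FoxP3 expressing cells carry a green fluorescent protein. The labels give the genotype of all 8 libraries as C57Bl/6, with no allele or agent that differs between the tissues. The study's methods give biological replicates but not whether a library pooled several mice. The titles of the SP-Treg libraries carry paired numbers that are not explained, and that would overlap if they were ranges. The p-values therefore measure the spread between these samples. Of the 10 genes, 9 passed the expression filter, which kept 13397 genes.

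Cells that are stressed or dying release ATP, which ion channels of the P2X family sense at the surface of T cells. CD39 (Entpd1) strips ATP and ADP to AMP, and CD73 (Nt5e) turns AMP into adenosine, an immunosuppressive nucleoside that Treg are known for producing. Adenosine acts through receptors that include those encoded by Adora2a and Adora2b, which raise cyclic AMP. It is cleared by uptake through the transporter ENT1 (Slc29a1) and by conversion inside the cell, by adenosine deaminase (Ada) to inosine or by adenosine kinase (Adk) to AMP. A side branch runs through NAD, with which the enzyme ART2.2 (Art2b) modifies P2X7 on mouse T cells, thereby opening it.

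Total expected counts were between 12427136 and 21921252 per library. By their labels, the first 3 BM-Treg replicates were female and of batch 1. The other BM-Treg library, like all those of SP-Treg, was male and of batch 3, so that sex and batch cannot be told apart. Batch 1 thus held no SP-Treg library, and the tissues met only in batch 3. A fit with a batch term therefore rested on BM-Treg replicate 4 against SP-Treg. The difference within batch 3 rested on the same libraries, so that these are not separate checks. BM-Treg replicates 1 and 2, labelled female, also held Y-linked transcripts, with 154 and 63.3 CPM over 4 genes against 2.01 CPM in BM-Treg replicate 3 and 234 CPM or more in the libraries labelled male. Their Xist levels were 1230 and 2267 CPM. These libraries go against their labels, and each call below was therefore also made with BM-Treg replicates 3 and 4 alone, a choice made after the data had been seen. The T cell and Treg markers Cd3e, Cd4, Foxp3, Il2ra, Ctla4 and Ikzf2 were tested and none of the 6 was called. They summed to 7209.7 to 8560.4 CPM in BM-Treg and to 7914 to 8732 CPM in SP-Treg. Il2ra had the largest difference of them (log2 fold change -0.62, edgeR adjusted p = 0.0803), at 736 to 939 CPM in BM-Treg and 848 to 1674 CPM in SP-Treg.

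Levels are given as CPM (counts scaled to a common library size and composition) when a gene is compared between tissues, and as FPKM (per length and depth) when genes are compared with each other. In FPKM, the order of mean levels in BM-Treg was Art2b, P2rx7, Entpd1, Adora2a, Nt5e, P2rx4, Slc29a1, Adk, Ada and Adora2b, from 65.8 ± 15.1 down to 0.14 ± 0.06 FPKM (SD, n = 4). Among neighbours in this order, Art2b and P2rx7 overlapped between libraries, as did Adora2a and Nt5e, and the other neighbours did not. In SP-Treg, Nt5e stood above Entpd1, with 57.6 ± 16.5 against 34.8 ± 4.93 FPKM (SD, n = 4). There Art2b lay above P2rx7 and Entpd1 above Adora2a without overlap, while P2rx7 and Nt5e overlapped, and so did each step from Adora2a through Slc29a1, P2rx4 and Adk to Ada. Ada was the least abundant of the tested genes in both tissues, at 2.83 ± 1.0 FPKM in BM-Treg and 4.03 ± 0.85 FPKM in SP-Treg (SD, n = 4 each).

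Between the tissues, 4 of the 9 tested genes were downregulated in BM-Treg (Nt5e, Slc29a1, Art2b and P2rx7) and 1 was upregulated (Adora2a). They passed an adjusted p threshold of 0.05 in edgeR's quasi-likelihood test, by which 5.02% of all genes tested were called lower, 3.72% higher and 8.75% in either direction. The remaining 4 (Entpd1, Ada, Adk and P2rx4) were not called. The libraries of the tissues did not overlap in CPM for 5 of the 9 genes, against 16.2% of all genes tested. As the genes were chosen with earlier results of these data known, these counts beside the shares are a description only. The median log2 fold change was -0.47 over the 9 genes and -0.01 over all genes tested. In RNA of sorted cells, fewer cells with a transcript and less of it per cell cannot be told apart. With BM-Treg replicates 3 and 4 alone, or with batch as a term, 1 gene was called lower (Nt5e) and 0 higher. Calls over all genes fell as well, to 157 higher and 155 lower of 13947 tested with BM-Treg replicates 3 and 4 alone, and to 111 higher and 147 lower with a batch term, against 499 and 673.

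**Figure D1:**
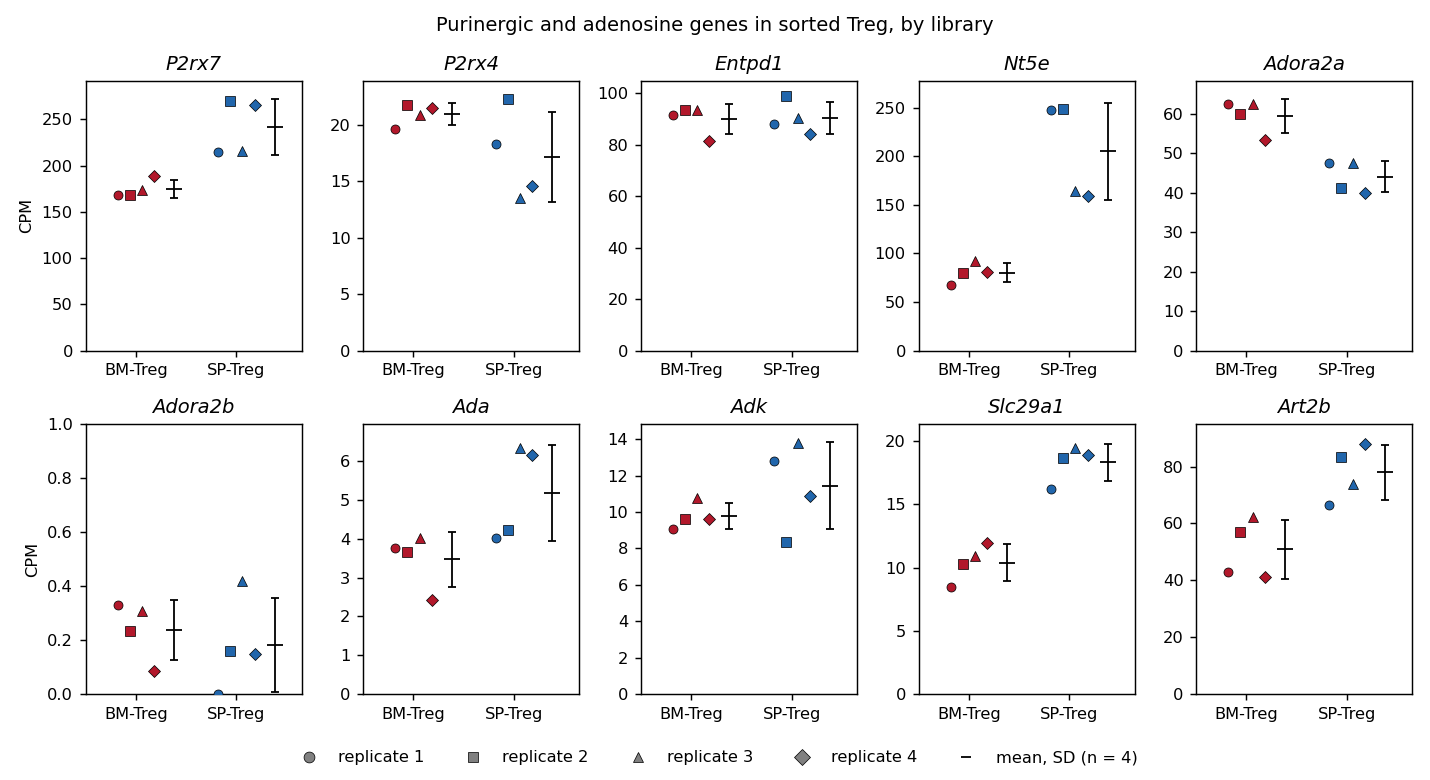
CPM of the 10 genes (y axes, each from 0) in the 4 BM-Treg (red) and 4 SP-Treg (blue) libraries, 1 point per library with its replicate number as the shape, and the mean with its SD at the right of each group. The groups are apart for P2rx7, Nt5e, Adora2a, Slc29a1 and Art2b, while Entpd1 lies between 81.5 and 99.0 CPM in both tissues and Adora2b stays at or below 0.42 CPM.

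Other cell types could add transcripts of these genes to a sort. The summed B cell markers (Ms4a1, Cd79a, Cd79b and Pax5) lay at 10.1 to 13.8 CPM in BM-Treg and at 6.25 to 68.5 CPM in SP-Treg, highest in SP-Treg replicate 2. Plasma cell markers summed to at most 0.56 CPM in BM-Treg and to 0.57 to 26.6 CPM in SP-Treg, and erythroid markers to 12.6 to 32.5 and 1.80 to 453 CPM. Monocyte and macrophage markers spanned 29.6 to 44.2 CPM in BM-Treg and 21.4 to 52.4 CPM in SP-Treg, granulocyte markers 1.31 to 9.85 and 0.22 to 16.9 CPM, pDC markers 47.9 to 57.7 and 25.9 to 63.0 CPM, and stromal and endothelial markers 48.4 to 73.4 and 41.3 to 53.8 CPM. CD8 T cell markers (Cd8a and Cd8b1) summed to 10.9 to 12.6 and 13.2 to 41.0 CPM. No list had a marker at 0 in all 8 libraries, but some sums rested on few genes. Pecam1 gave most of the stromal and endothelial sum (39.5 to 72.2 CPM), while Cxcl12, Lepr and Cdh5 reached at most 0.75 CPM. The pDC sum held Ccr9 at 8.76 to 41.7 CPM, and Siglech at no more than 0.82 CPM. Of the genes tested in these lists, only Cd8a was called. It was lower in BM-Treg (0.84 to 1.71 against 1.80 to 21.0 CPM, edgeR adjusted p = 0.0293). SP-Treg replicate 1 had the lowest B cell, erythroid, granulocyte, monocyte and pDC sums of the 8 libraries, but its CD8 T cell (13.2 CPM) and plasma cell (0.57 CPM) sums were above those of every BM-Treg library. In that library Nt5e stood at 248, P2rx7 at 215, Slc29a1 at 16.2 and Art2b at 66.5 CPM. For these genes each SP-Treg library lay above every BM-Treg library, so that picking this one adds no check. The part of other cell types in the differences between the tissues was not tested.

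P2rx7 (ENSMUSG00000029468, chr5:122643911-122691432, plus strand, GRCm38) encodes P2X7, the receptor through which high ATP can kill T cells. Its CPM values were 168, 168, 174 and 189 in BM-Treg replicates 1 to 4 and 215, 270.2, 216 and 266 in SP-Treg replicates 1 to 4. Every BM-Treg library lay below every SP-Treg library. The log2 fold change was -0.47 (standard error 0.11, edgeR adjusted p = 0.0135), a 1.38-fold lower level. The call was lost without BM-Treg replicate 1 (edgeR adjusted p = 0.0504) or 2 (0.0557), with replicates 3 and 4 alone on the BM side (0.187), with a batch term (0.289) and in limma's test on log2(FPKM + 1) (0.108). Within batch 3 the difference was -0.34.

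P2rx4 (ENSMUSG00000029470, chr5:122707584-122729738, plus strand), the next gene downstream of P2rx7 among those described here, encodes P2X4, an ATP receptor that opens at lower ATP. It was measured at 19.7, 21.8, 20.9 and 21.5 CPM in BM-Treg and at 18.3, 22.3, 13.5 and 14.6 CPM in SP-Treg. SP-Treg replicate 2 lay above all BM-Treg libraries and the other SP-Treg libraries below them. The log2 fold change of 0.29 (95% interval -0.06 to 0.63) had an edgeR adjusted p of 0.309. It moved to 0.43 without SP-Treg replicate 2 and to 0.19 without SP-Treg replicate 3, and it was larger in limma's fit of FPKM, at 0.57 with a pseudocount of 1 and 0.61 with 0.1, with no call in any of these.

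Within a library, the ratio of P2rx7 to P2rx4 in FPKM does not depend on the scaling between libraries. It was 3.12, 2.53, 3.08 and 3.76 in BM-Treg and 4.68, 4.19, 6.57 and 9.77 in SP-Treg. The groups did not overlap. The mean log2 ratio was 0.95 lower in BM-Treg, at 1.63 ± 0.23 against 2.57 ± 0.55 (SD, n = 4 each), with an exact two-sided permutation p of 0.0286, the smallest that 4 against 4 libraries allow, and 0.0429 after BH adjustment over the 3 ratios tested. Within batch 3 the difference was -0.66 with no test, and on expected counts, on which P2rx4 differed less than on FPKM, it was -0.78.

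Most P2rx7 counts were assigned to 1 transcript, P2rx7-203 (ENSMUST00000100737), with 86.6 ± 0.82% in BM-Treg and 86.7 ± 4.15% in SP-Treg (SD, n = 4 each). The tables list 4 of the 8 P2rx7 transcripts of GENCODE M21, so that a share is a share of those listed. P2rx4 counts were split over P2rx4-202, with 30.9 to 62.6%, and P2rx4-201, with 15.7 to 52.0%, over all libraries. P2rx4-206, named after its values were seen, took 9.38 to 20.5% in BM-Treg and at most 8.56% in SP-Treg. Shares of overlapping transcripts are estimates from single-end reads and were not tested.

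Upstream of its first RefSeq start site, P2rx7 has 2 GC boxes (GGGCGG on either strand, the motif that SP1 binds), 90 and 11 bases before that start. GENCODE M21 places the start of P2rx7-203 at 122643911, so that the nearer box lies within this transcript. The 300 bases from 250 before to 50 after the RefSeq start (GRCm38.p6, chr5:122643677-122643976, plus strand) are shown with both in capitals. A further RefSeq window of P2rx7 (chr5:122650133-122650432) held no GC box and is not shown. GC boxes were present in 35.7% of 32851 mouse promoter windows of this length.
P2rx7: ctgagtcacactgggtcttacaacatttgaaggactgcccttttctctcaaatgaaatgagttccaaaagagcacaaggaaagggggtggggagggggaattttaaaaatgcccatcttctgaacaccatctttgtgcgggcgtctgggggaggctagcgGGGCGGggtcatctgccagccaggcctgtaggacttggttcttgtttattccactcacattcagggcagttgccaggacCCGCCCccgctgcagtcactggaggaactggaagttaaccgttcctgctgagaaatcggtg

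The transcript of CD39, the first ectoenzyme of the pathway, showed the smallest difference of the 9 tested genes. Entpd1 (ENSMUSG00000048120, chr19:40612366-40741602, plus strand) was at 91.6, 93.5, 93.4 and 81.5 CPM in BM-Treg and at 88.3, 99.0, 90.5 and 84.2 CPM in SP-Treg. The libraries of the tissues were interleaved. The log2 fold change was -0.01, with a 95% interval of -0.22 to 0.20 (edgeR adjusted p = 0.974), and within batch 3 it was -0.15. The sign of a difference this small changed between settings.

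Entpd1 counts were assigned to transcripts with a distal and a proximal start site, as estimates from single-end reads. The proximal transcript Entpd1-201 (ENSMUST00000112231, start at 40659770) took 58.2, 65.4, 80.7 and 72.2% of the gene's counts in BM-Treg replicates 1 to 4, and 73.2, 74.9, 76.6 and 73.5% in SP-Treg replicates 1 to 4. The distal transcript Entpd1-204 (ENSMUST00000134063, start at 40612397) took 30.8, 28.9, 16.2 and 22.8% and 18.9, 20.5, 20.8 and 15.2%. Shares were more spread in BM-Treg, with an SD of 9.62 against 1.56 percentage points (n = 4 each) for Entpd1-201, and BM-Treg replicates 1 and 2 held the lowest values. These are the libraries that go against their labels, and the part of this in the shares was not tested.

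Both promoters are given because counts were assigned to transcripts of both, distal first (RefSeq, GRCm38.p6, chr19:40612116-40612415 and chr19:40659520-40659819, plus strand). The capitals mark TGACG on either strand, the half-site that the cyclic AMP responsive factor CREB binds, found 135 and 183 bases before the start. This motif was present in 20.8% of promoter windows.
Entpd1 distal: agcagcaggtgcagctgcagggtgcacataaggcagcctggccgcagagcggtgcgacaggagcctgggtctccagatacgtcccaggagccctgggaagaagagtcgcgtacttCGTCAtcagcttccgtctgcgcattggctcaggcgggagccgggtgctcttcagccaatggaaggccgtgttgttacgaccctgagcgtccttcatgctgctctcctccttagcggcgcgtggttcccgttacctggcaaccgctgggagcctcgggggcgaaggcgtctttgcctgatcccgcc
Entpd1 proximal: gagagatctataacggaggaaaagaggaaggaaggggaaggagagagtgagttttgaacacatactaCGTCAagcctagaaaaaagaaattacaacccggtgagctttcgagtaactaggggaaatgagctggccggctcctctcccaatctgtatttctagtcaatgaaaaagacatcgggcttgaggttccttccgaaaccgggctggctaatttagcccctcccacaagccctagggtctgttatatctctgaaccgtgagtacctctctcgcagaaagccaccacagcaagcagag

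**Figure D2:**
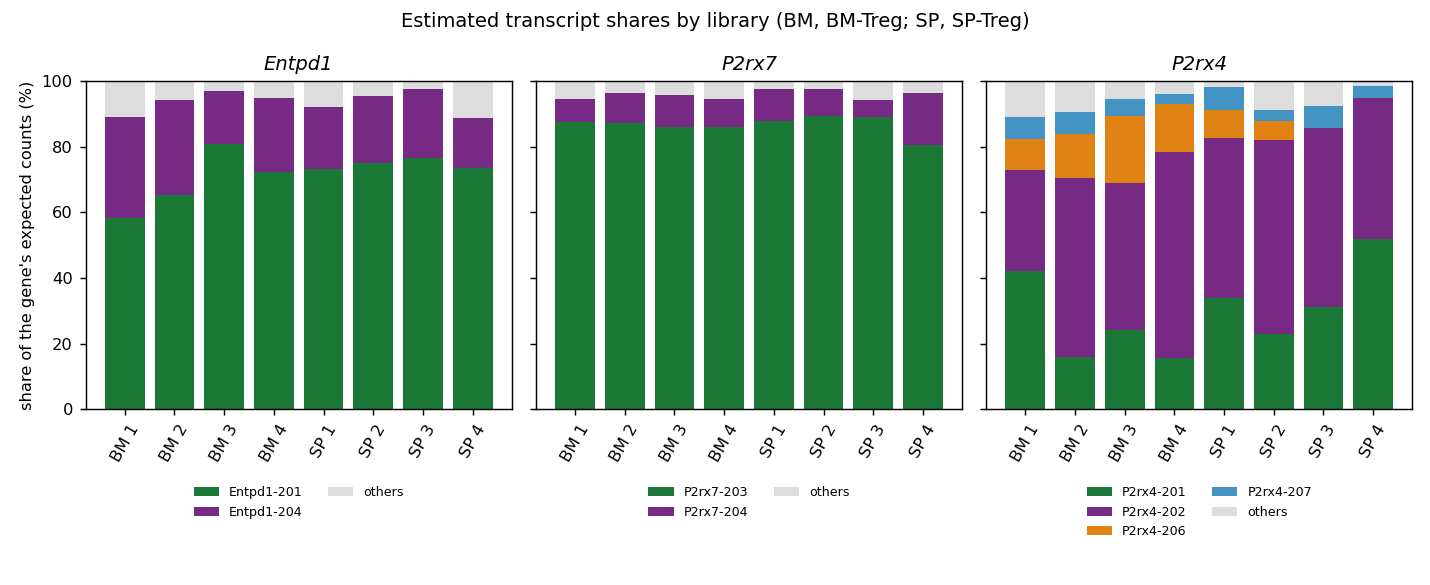
Stacked bars of the estimated share of each gene's expected counts (y axis, percent) taken by its transcripts with a mean share of at least 5% in the 8 libraries (x axis), for Entpd1, P2rx7 and P2rx4, with the rest in grey. Entpd1-201 and P2rx7-203 lead in every library, while P2rx4 is split and its split varies between libraries.

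The transcript of CD73, the enzyme that makes adenosine, showed the largest difference of the 9 tested genes. Nt5e (ENSMUSG00000032420, chr9:88327609-88372089, plus strand) was at 67.7, 80.3, 91.7 and 80.8 CPM in BM-Treg replicates 1 to 4. In SP-Treg replicates 1 to 4 it was at 248, 248, 164 and 159 CPM. The BM-Treg libraries lay close together and the SP-Treg libraries fell into a higher and a lower pair, with coefficients of variation of 12.3% and 24.3%. The lowest SP-Treg library was still above the highest BM-Treg library. The level was 2.56-fold lower in BM-Treg (log2 fold change -1.35, 95% interval -1.70 to -1.01, edgeR adjusted p = 0.000568). With BM-Treg replicates 3 and 4 alone it was -1.22 (edgeR adjusted p = 0.0256), with a batch term -1.34 (0.0483), and within batch 3 -1.31 with no test. Of the alternatives with a test, all 19 called it.

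The balance of the transcripts of both ectoenzymes differed between the tissues. The ratio of Nt5e to Entpd1 in FPKM was 0.43, 0.60, 0.80 and 0.74 in BM-Treg and 1.93, 1.96, 1.54 and 1.17 in SP-Treg. Nt5e was thus below Entpd1 in each BM-Treg library and above it in each SP-Treg library. The mean log2 ratio was -0.68 ± 0.41 in BM-Treg and 0.69 ± 0.35 in SP-Treg (SD, n = 4 each), a difference of -1.37 (exact two-sided permutation p = 0.0286, BH adjusted 0.0429). Within batch 3 it was -1.12 with no test. These are RNA levels. The paper's RNAseq had already listed Nt5e among the genes downregulated in BM-Treg. By flow cytometry, however, the paper found CD73 raised across the BM-Treg population, opposite in direction to Nt5e RNA. It also found CD39 raised on both Treg and conventional T cells of the marrow, while Entpd1 RNA was not called.

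**Figure D3:**
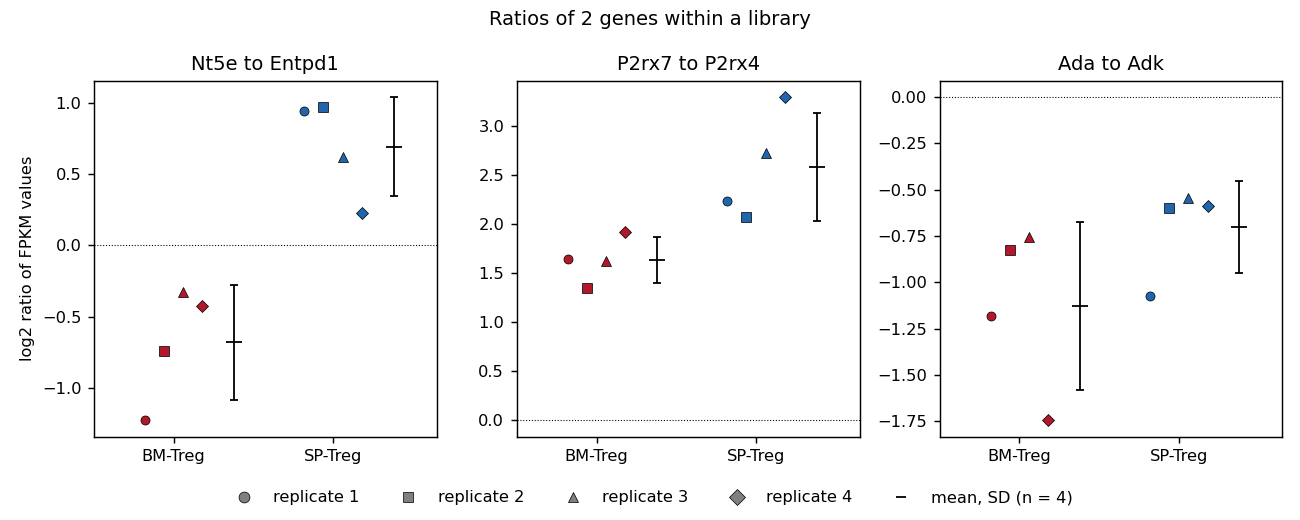
Log2 of the ratio of FPKM values of 2 genes within each library (y axis) for Nt5e to Entpd1, P2rx7 to P2rx4 and Ada to Adk, in BM-Treg (red) and SP-Treg (blue), with 1 point per library and the mean with its SD. Nt5e to Entpd1 is below 0 in the 4 BM-Treg libraries and above 0 in the 4 SP-Treg libraries, P2rx7 to P2rx4 is lower in BM-Treg without overlap, and Ada to Adk overlaps.

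The Nt5e promoter is shown because Nt5e carried the largest difference (RefSeq, GRCm38.p6, chr9:88327359-88327658, plus strand). Capitals mark 4 GC boxes in overlapping pairs, 223 and 219 and again 24 and 19 bases before the RefSeq start. GENCODE M21 places the start of the transcript Nt5e-201 at 88327197, upstream of this window, so that the window is a promoter by RefSeq only. No TGACG, no hypoxia response core (ACGTG) and no TCF/LEF core (CTTTGA) was found in this window on either strand, which says only that these letters are not there. ACGTG and CTTTGA occur in 19.6% and 16.0% of promoter windows.
Nt5e: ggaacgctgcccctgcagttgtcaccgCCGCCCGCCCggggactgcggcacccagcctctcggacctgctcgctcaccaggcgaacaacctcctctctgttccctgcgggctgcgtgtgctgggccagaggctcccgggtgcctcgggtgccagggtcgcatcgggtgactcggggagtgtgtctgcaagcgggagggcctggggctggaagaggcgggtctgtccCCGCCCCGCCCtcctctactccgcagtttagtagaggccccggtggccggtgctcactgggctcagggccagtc

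Of both adenosine receptors, Adora2a was transcribed in both tissues and Adora2b hardly in either. Adora2a (ENSMUSG00000020178, chr10:75316943-75334788, plus strand) was at 62.6, 59.8, 62.4 and 53.4 CPM in BM-Treg and at 47.5, 41.3, 47.5 and 40.0 CPM in SP-Treg. The 4 BM-Treg libraries were the 4 highest, as for 7.58% of all genes tested, and the level was 1.35-fold higher in BM-Treg (log2 fold change 0.44, standard error 0.11, edgeR adjusted p = 0.0231). The call did not hold without BM-Treg replicate 2 (edgeR adjusted p = 0.0692) or 3 (0.0666), or without SP-Treg replicate 2 (0.0726) or 4 (0.0604). It was also lost with BM-Treg replicates 3 and 4 alone (0.156), in limma's test on log2(FPKM + 1) (0.0598) and with a batch term (0.389), and within batch 3 the difference was 0.28.

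Adora2b (ENSMUSG00000018500, chr11:62248984-62266453, plus strand) had 6, 5, 7 and 1 counts in BM-Treg and 0, 2, 5 and 2 counts in SP-Treg. It did not pass the expression filter and was not tested. A count of 0, as in SP-Treg replicate 1, allows up to 3 counts or 0.215 CPM there, and intervals of this kind cover counting error only. With no filter on low counts, Adora2b had a log2 fold change of 0.45 (edgeR adjusted p = 0.861), resting on these few counts.

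Among the genes that remove adenosine, the transporter differed and the enzymes did not pass the test. Slc29a1 (ENSMUSG00000023942, chr17:45585200-45599606, minus strand) encodes ENT1, which carries adenosine across the membrane along its gradient. It was at 8.43, 10.3, 10.9 and 11.9 CPM in BM-Treg and at 16.2, 18.6, 19.5 and 18.9 CPM in SP-Treg. The groups were well apart, at 1.77-fold less in BM-Treg (log2 fold change -0.82, standard error 0.16, edgeR adjusted p = 0.00460). Leaving out any single library kept Slc29a1 past the threshold (edgeR adjusted p at most 0.0195), and so did limma's test on log2(FPKM + 1) (0.0308). The call ended with BM-Treg replicates 3 and 4 alone (0.0898) and with a batch term (0.206), and within batch 3 the difference was -0.61. Its counts were spread over many overlapping transcripts whose shares jumped between libraries, for example from 0 to 77.9% for Slc29a1-203 within SP-Treg, so that no transcript is described.

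Ada (ENSMUSG00000017697, chr2:163726584-163750239, minus strand) lay at 3.78, 3.66, 4.03 and 2.42 CPM in BM-Treg and at 4.02, 4.22, 6.35 and 6.16 CPM in SP-Treg. BM-Treg replicate 3 and SP-Treg replicate 1 were nearly equal. The log2 fold change of -0.57 had a wide 95% interval (-1.14 to 0.00) and was not called (edgeR adjusted p = 0.217), and within batch 3 it was -1.03. Adenosine kinase, Adk (ENSMUSG00000039197, chr14:21052574-21448568, plus strand), was at 9.09, 9.63, 10.8 and 9.60 CPM in BM-Treg and 12.8, 8.37, 13.8 and 10.9 CPM in SP-Treg. The spleen libraries spanned both sides of the BM-Treg libraries, and the log2 fold change was -0.23 (95% interval -0.62 to 0.16, edgeR adjusted p = 0.496). It moved to -0.15, -0.35 and -0.13 without SP-Treg replicates 1, 2 and 3, and to -0.12 and -0.14 in limma's fit of FPKM with a pseudocount of 1 and 0.1, and was called in none of these. The ratio of Ada to Adk in FPKM was 0.44, 0.56, 0.59 and 0.30 in BM-Treg and 0.47, 0.66, 0.68 and 0.67 in SP-Treg, with overlap. Adk was above Ada in each library. The difference in log2 ratio, -0.43, gave an exact two-sided permutation p of 0.171 (BH adjusted 0.171), and within batch 3 it was -1.04 with no test. BM-Treg replicate 4 had the lowest ratio and is the only BM-Treg library of batch 3, and without it the difference was -0.22.

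On the NAD branch, Art2b (ENSMUSG00000030651, chr7:101578860-101581161, minus strand) followed P2rx7 in direction. Its CPM values were 42.8, 57.0, 62.3 and 41.3 in BM-Treg and 66.5, 83.4, 73.8 and 88.0 in SP-Treg. The highest BM-Treg library was just below the lowest SP-Treg library. The log2 fold change was -0.61 (standard error 0.14, edgeR adjusted p = 0.0161), or 1.53-fold lower in BM-Treg, and -0.91 within batch 3. It was no longer called without BM-Treg replicate 1 (edgeR adjusted p = 0.0656), with BM-Treg replicates 3 and 4 alone (0.143), in limma's test on log2(FPKM + 1) (0.0648) or with a batch term (0.0578).

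Art2b has a close relative, Art2a-ps, beside it on the chromosome (chr7:101552453-101560865), annotated as a pseudogene in C57Bl/6. Of the 80-base windows of the Art2b transcript, 6.57% also occurred in Art2a-ps, as did 29.9% of its 25-base windows, so that reads there could be assigned to either. Art2a-ps was at 74.1, 74.7, 67.3 and 83.8 CPM in BM-Treg and at 84.9, 110.0, 92.4 and 111 CPM in SP-Treg. It too was lower in each BM-Treg library (log2 fold change -0.41, edgeR adjusted p = 0.0375), with -0.24 within batch 3 and -0.25 with a batch term (edgeR adjusted p = 0.480). With the counts of both genes summed, an alternative chosen after the data had been seen, the decrease reached -0.50 on the log2 scale (edgeR adjusted p = 0.00938).

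The Art2b promoter is given beside that of P2rx7 because their products act together (RefSeq, GRCm38.p6, chr7:101581112-101581411, minus strand, written along the gene). Capitals mark its single TGACG, 5 bases before the start, and it has no GC box. In all, RefSeq promoter windows were found for 9 of the 10 genes.
Art2b: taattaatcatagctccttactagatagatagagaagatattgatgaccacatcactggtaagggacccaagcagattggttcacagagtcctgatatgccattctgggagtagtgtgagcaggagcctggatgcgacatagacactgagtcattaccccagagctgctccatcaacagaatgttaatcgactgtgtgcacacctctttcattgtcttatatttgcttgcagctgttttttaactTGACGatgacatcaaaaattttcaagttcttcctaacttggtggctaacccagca

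**Figure D4:**
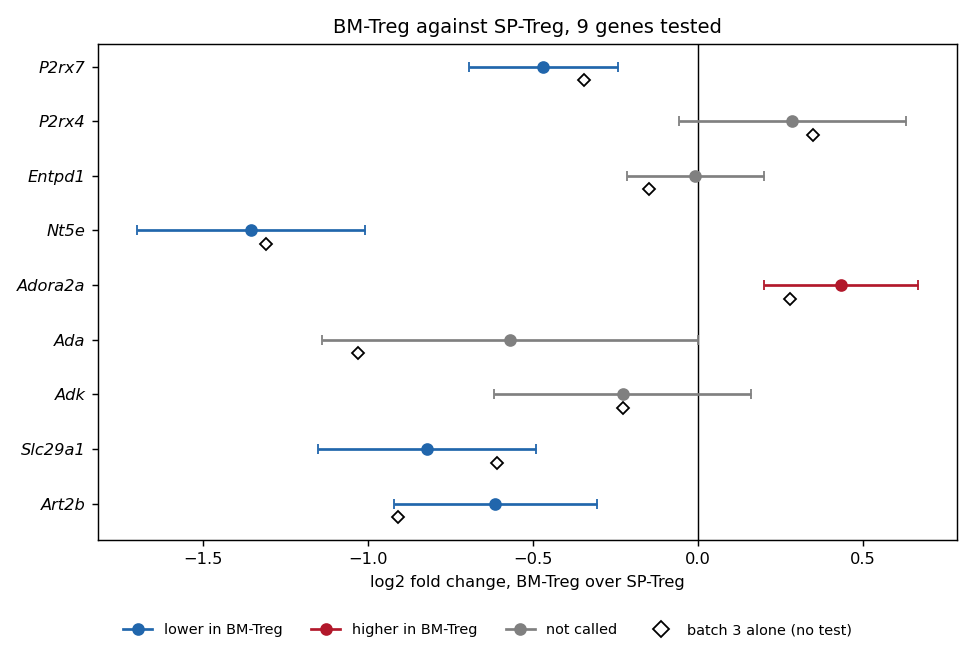
Log2 fold change of BM-Treg over SP-Treg (x axis) for the 9 tested genes, with 95% intervals from edgeR's fit, blue for lower and red for higher in BM-Treg at an adjusted p threshold of 0.05 and grey for not called. Diamonds give the difference within batch 3, which has 1 BM-Treg library, and lie on the same side of 0 as the fit for each gene, from -1.31 for Nt5e to 0.35 for P2rx4.

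To place these genes in the wider pathway, 87 further genes in 8 groups were counted, of which 56 passed the expression filter. Of these, 4 were upregulated and 8 downregulated in BM-Treg, and 44 were not called, where 3.72% of all genes tested were called higher and 5.02% lower. The median log2 fold change over the 56 genes was -0.01, as over all genes tested. With BM-Treg replicates 3 and 4 alone, 2 genes were called higher and 1 lower of the 60 that then passed the filter (Pde2a, Pde4a and Pde7a). With a batch term the counts were also 2 and 1 (Pde2a, Pde4a and Dpp4).

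The cyclic AMP signalling group, downstream of Adora2a, held 6 of these 12 genes, with 3 up, 3 down and 14 not called of 20 tested. Pde2a and Pde4a, phosphodiesterases that break down cyclic AMP, were higher in BM-Treg. Pde2a was at 103, 88.7, 84.9 and 107 CPM in BM-Treg and at 56.7, 56.4, 45.4 and 58.9 CPM in SP-Treg (log2 fold change 0.82, standard error 0.12, edgeR adjusted p = 0.00106). Pde4a was at 9.36, 8.66, 10.5 and 12.9 CPM against 5.67, 5.58, 7.02 and 4.77 CPM (0.84, standard error 0.20, edgeR adjusted p = 0.0182). Phosphodiesterases of the same kind moved the other way as well. Pde7a was at 36.3, 31.1, 28.0 and 31.4 CPM in BM-Treg and at 48.3, 45.8, 55.5 and 51.1 CPM in SP-Treg (-0.66, edgeR adjusted p = 0.00314). Pde4b ranged from 93.2 to 116 CPM in BM-Treg and from 123 to 159 CPM in SP-Treg (-0.41, edgeR adjusted p = 0.0288).

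Crem, whose gene encodes activators and repressors that respond to cyclic AMP, was at 24.4, 29.7, 33.5 and 27.2 CPM in BM-Treg and at 64.6, 38.5, 39.7 and 54.2 CPM in SP-Treg (log2 fold change -0.78, edgeR adjusted p = 0.0107). Adcy7, an adenylyl cyclase that makes cyclic AMP, ranged from 134 to 161 CPM in BM-Treg and from 103 to 120.5 CPM in SP-Treg (0.36, edgeR adjusted p = 0.0360). Pde4b lost its call without BM-Treg replicates 1, 2 or 3 or SP-Treg replicates 2 or 3 (edgeR adjusted p up to 0.113), and was at -0.25 within batch 3 and at -0.26 with a batch term (0.443). Adcy7 lost it in 6 of 8 such fits, those without BM-Treg replicates 1, 2 or 3 or SP-Treg replicates 1, 3 or 4 (up to 0.0877).

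Purine salvage and nucleotidases had 4 genes down, 0 up and 12 not called of 16 tested. Gda, the guanine deaminase, was at 2.08, 2.82, 3.59 and 2.0 CPM in BM-Treg and at 8.40, 6.85, 5.27 and 4.18 CPM in SP-Treg (log2 fold change -1.22, edgeR adjusted p = 0.0183). Dck, the kinase that salvages deoxynucleosides, ranged from 59.5 to 74.0 CPM in BM-Treg and from 78.2 to 116 CPM in SP-Treg (-0.55, edgeR adjusted p = 0.0134). Both were therefore lower in each BM-Treg library. Ahcy, which splits S-adenosylhomocysteine and so releases adenosine, ranged from 14 to 24.6 CPM in BM-Treg and from 25.4 to 30.2 CPM in SP-Treg (-0.64, edgeR adjusted p = 0.0271). The call of Gda was lost without BM-Treg replicate 1 or SP-Treg replicate 1 (edgeR adjusted p up to 0.0719). Ahcy lost its call without BM-Treg replicates 1, 2 or 3 or SP-Treg replicates 2 or 4 (up to 0.0929). Its highest BM-Treg value, 24.6 CPM, was that of replicate 4, and the difference was -0.15 within batch 3 and -0.16 with a batch term (edgeR adjusted p = 0.718). In limma's fit of log2(FPKM + 1) the differences of Gda (-0.37), Ahcy (-0.32) and Pde7a (-0.33) were also smaller and not called.

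In the group of ATP release, Lrrc8a, the obligatory subunit of the volume regulated anion channel, was called higher, and the other 4 tested genes were not called. It ranged from 108 to 131 CPM in BM-Treg and from 73.7 to 94.3 CPM in SP-Treg (log2 fold change 0.43, edgeR adjusted p = 0.0224), and the call was lost without BM-Treg replicates 1 or 3 or SP-Treg replicate 4 (up to 0.0568). Of the NAD ectoenzymes, Art2a-ps was called and the other 3 tested genes were not. The call of Art2a-ps was lost without BM-Treg replicates 1, 2 or 3 or SP-Treg replicates 2 or 4 (edgeR adjusted p up to 0.111).

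In the fit of all 8 libraries without a batch term, 4 groups had no gene called. They were extracellular nucleotide hydrolysis (4 tested), nucleotide receptors (2 tested), adenosine receptors with the ADA anchor (1 tested) and nucleoside transporters (4 tested). The hydrolysis group was listed by gene family, and whether its products act outside the cell was not examined. The most abundant genes of these groups show the range of outcomes. Slc28a2, the concentrative nucleoside transporter CNT2, had mean CPM values of 225 ± 14.4 (BM-Treg) and 223 ± 23.6 (SP-Treg), each with its SD over n = 4 (log2 fold change 0.01, edgeR adjusted p = 0.968). Dpp4, the CD26 protein to which adenosine deaminase binds on T cells, was at 40.7 ± 6.89 and 56.4 ± 7.33 CPM (-0.47, edgeR adjusted p = 0.0504). Its libraries did not overlap in CPM but did in FPKM. BM-Treg replicate 4, on which a fit with a batch term rests, had the lowest Dpp4 level, at 31.1 CPM. P2ry10, a relative of the nucleotide receptors, was at 104 ± 6.11 and 84.5 ± 7.98 CPM (0.30, edgeR adjusted p = 0.0809), and Entpd5 at 43.6 ± 5.21 and 34 ± 4.53 CPM (0.36, edgeR adjusted p = 0.108).

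**Figure D5:**
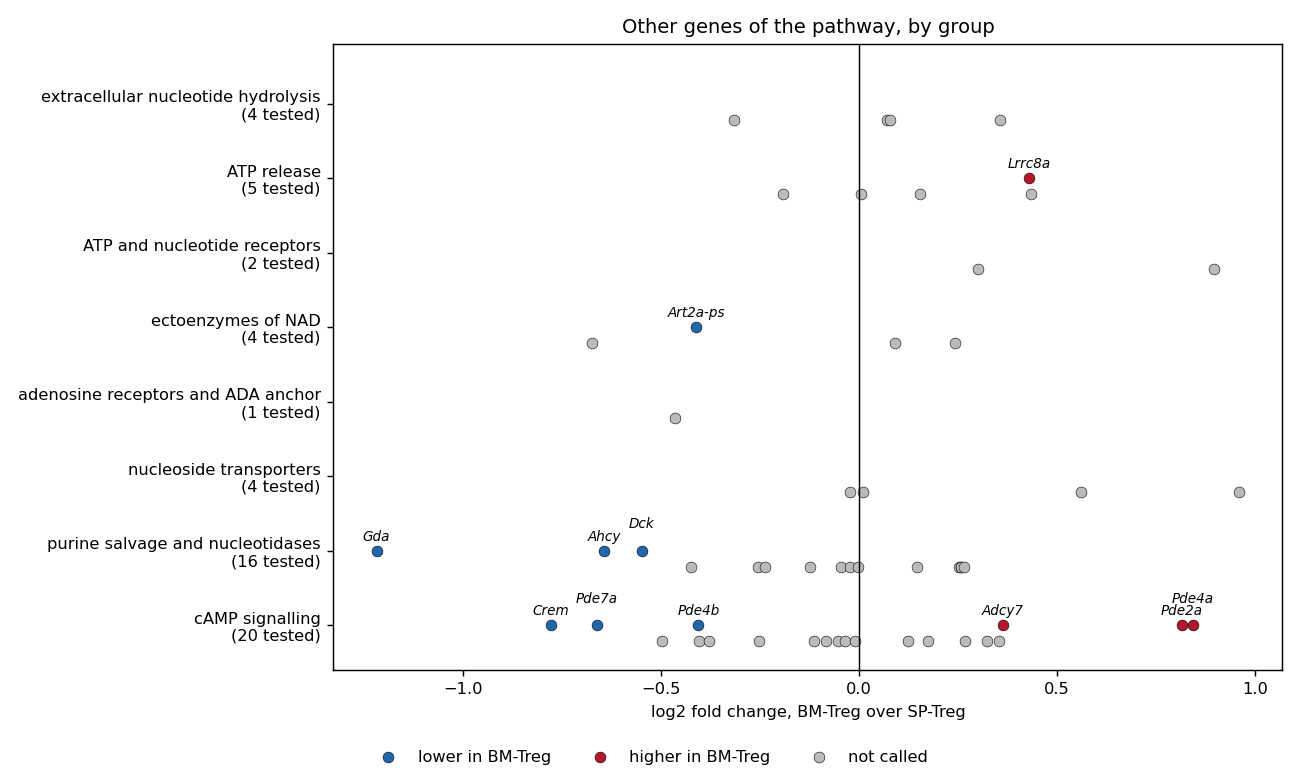
Log2 fold change of BM-Treg over SP-Treg (x axis) for 55 of the 56 tested further pathway genes in 8 groups (y axis), blue for lower, red for higher in BM-Treg and grey for not called, with the called genes named. The 3 called salvage genes shown lie on the lower side, from -1.22 to -0.55, and the cyclic AMP group has 3 called genes on each side.

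The genes whose log2 CPM followed a called gene most closely over the 8 libraries were found by Pearson's r. These values contain the difference between the tissues and shared library effects, and serve as a description. Nt5e was followed by Irf4, a transcription factor of effector Treg (r = 0.993), by Igf1r, the receptor of insulin-like growth factor 1 (0.992), and by Setbp1 (0.991). Irf4 and Igf1r had log2 fold changes of -1.14 and -1.13, near that of Nt5e, and Setbp1 of -1.86. Slc29a1 was followed by Rbm10 (0.987), Utp14a (0.987) and Folr4 (0.980), and P2rx7 by Sdf2l1 (0.972), Zfp330 (0.971) and Abtb2 (0.970). For Art2b the closest were Klc3 (0.975), Jak3 (0.975) and Tspan3 (0.974), and for Adora2a Mynn (0.970) and Arfgap1 (0.965).

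Between the genes themselves, P2rx7 and Adora2a were the pair with the lowest r over the 8 libraries (-0.98). After the tissue means had been subtracted it was -0.92, so that within a tissue libraries with more P2rx7 tended to have less Adora2a. The pair was picked for its low r. In BM-Treg, replicate 4, the only one of batch 3, had the most P2rx7 (189 CPM) and the least Adora2a (53.4 CPM). Nt5e and Slc29a1, both lower in BM-Treg, had an r of 0.88 over the 8 libraries and of 0.01 within tissues.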

How the data were processed

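The authors deposited expected counts (estimated reads per gene and per transcript, which need not be whole, without normalization) and FPKM values (those counts per transcript length and library depth), each with a column per library. Per the labels, RNA of sorted cells was amplified by NuGEN SPIA, and the methods give single-end reads of 80 nt. The submitters' processing notes name cutadapt 1.9, STAR 2.5.2a, RSEM 1.2.30 and GRCm38, and the annotation release is not given in the sources used here. Amplified cDNA carried no molecular identifiers, so reads are not independent molecules.

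Expected counts were rounded to whole numbers, filtered by edgeR's default rule on groups and scaled by TMM, with total counts of 12427136 to 21921252 per library. BM-Treg was compared with SP-Treg by edgeR's quasi-likelihood test, robust and with no covariate, and with BH adjustment over 13397 genes (R 4.3.3, edgeR 4.0.16, limma 3.58.1, DESeq2 1.42.0), as the paper names no test for the RNAseq. CPM values are counts over TMM library sizes. Ratios of FPKM values were compared by exact two-sided permutation tests (Python 3.11.15, scipy 1.17.1). The fit was tested on simulated data. The number of unmatched library columns was 0. The genes and lists were chosen with earlier results of these data known. Named are the 10 genes, the pathway genes called or, in a group with none, the most abundant one, and the 3 genes with the highest r to each called gene. Some genes that these rules or lists give are not reported here. Transcript shares are described from a mean of 10%. Same-numbered libraries did not deviate together (r between -0.18 and 0.06), so replicate numbers were not treated as pairs. Protein sequences were not used here.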

Additional observations from a re-analysis of the deposited data

Results flagged for a closer look

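In 2 of 26 groups of 4 libraries (the CPM of each gene and each log2 ratio, by tissue), a library stood further from the others than Dixon's 95% critical value for 4 libraries allows, where chance gives about 1 in 20. Entpd1 in BM-Treg replicate 4 was at 81.5 CPM, with the other BM-Treg libraries between 91.6 and 93.5 CPM. It is the only BM-Treg library of batch 3. The log2 FPKM ratio of Ada to Adk in SP-Treg replicate 1 was -1.08, with the other SP-Treg libraries between -0.60 and -0.55.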

How the results depend on the processing

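Of the values that answer a comparison, 107 under an alternative kept their direction and their side of the threshold or stayed within the replicate spread, 39 moved and 18 were weaker. Counts of the 9 tested genes called higher and lower (main 1 and 4) were 0 and 2 on FPKM with a pseudocount of 1 or 0.1 and at a threshold of 0.01. They were 0 and 1 with a batch term and with BM-Treg replicates 3 and 4 alone, the latter chosen after the data had been seen, and 0 to 1 and 2 to 4 with a library left out. Among the further pathway genes (main 4 and 8 of 56 tested) the counts were 2 and 0 on FPKM with either pseudocount, 2 and 1 with a batch term and 1 and 1 at 0.01. Where other numbers passed the filter, they were 2 and 1 of 60 with BM-Treg replicates 3 and 4 alone, 2 to 4 and 3 to 9 of 57 to 59 with a library left out, 4 and 12 of 62 in DESeq2, 4 and 11 of 84 with no filter and 4 and 8 of 51 with 10 counts in every library. Over all genes, 499 were called higher and 673 lower, against 456 and 271 on FPKM with a pseudocount of 1, which moved the median of all genes to 0.05 on the log2 scale. DESeq2 called 752 and 978, no filter 620 and 706, BM-Treg replicates 3 and 4 alone 157 and 155, and the batch term 111 and 147. With 10 counts in every library more genes were called higher (632) than lower (599). The cause of these changes was not tested.

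The replicate block, for numbers that do not pair these samples, called 1 and 4 of the 9 genes, 3 and 8 pathway genes and 400 and 548 of all genes. By pairs, the ratios of Nt5e to Entpd1 (-1.37) and P2rx7 to P2rx4 (-0.95) gave an exact permutation p of 0.125, the smallest that 4 pairs allow. With a library left out they ranged from -1.53 to -1.19 and from -1.11 to -0.71, each with an exact permutation p of 0.0571, the smallest for 3 against 4. Within batch 3 the log2 ratio of Ada to Adk differed by -1.04. The sign of Entpd1 turned on FPKM (0.11 with either pseudocount), with no filter (0.0117) and with 10 counts in every library (0.0210), and ranged from -0.0413 to 0.0372 with a library left out, never called. As shares of FPKM, the leading transcripts took 42.1% and 46.4% (Entpd1), 74.2% and 68.9% (Ada) and 62.2% and 65.4% (P2rx7) in BM-Treg and SP-Treg, and 43.1% for P2rx4 in SP-Treg. Depth limits Adora2b, at most 7 counts, and transcript shares of Ada and Slc29a1.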
